A study of Mus musculus with 9 samples.

Results

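The genes described here are the receptor chains, kinases and ligand of the common gamma chain system. They are Il2rg, Il2rb, Il2ra, Il7r, Il9r, Il15ra, Il21r, Jak1, Jak3 and Il15, chosen by symbol, and all 10 were found among the 55342 gene names of the files. The common gamma chain, encoded by Il2rg, is a cell surface protein that pairs with a more specific chain to bind interleukins 2, 4, 7, 9, 15 and 21. Binding brings together the kinases Jak3, which is held by the common gamma chain, and Jak1, which is held by the partner chain, and these activate STAT transcription factors. T cells, natural killer (NK) cells and other innate lymphoid cells need this signal to develop and survive, and interleukin 15 is the cytokine on which NK cells and type 1 innate lymphoid cells (ILC1) depend in tissues.

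The values are from bulk sequencing of polyadenylated RNA from labial mucosa biopsies of mice labelled Tac111 (replicates 1, 2 and 3), Tac146 (replicates 2, 3 and 4) and B6 (replicates 1, 2 and 3), 9 libraries in all. The labels say that the mice carry different mutations without naming an allele for any strain, and they give no age or sex. All mice had been infected before the biopsy, with an agent, dose and time that the sources used here do not give. T cells are named in the labels for the Tac111 and Tac146 libraries and ILC1 for the B6 libraries, so that labelled cell type and strain cannot be told apart in a comparison with B6. Nothing in the labels ties the libraries of a strain to different animals. The p-values therefore measure only how far these samples spread, which may be technical.

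The libraries held 27192359 to 46456500 expected counts. Levels are in CPM, which relates a count to the TMM-scaled size of its library. A log2 fold change is followed by a standard error (SE), derived as its size divided by the square root of the edgeR quasi-likelihood F. For a gene with few reads in a strain, such as Il2rg or Il2rb in Tac111, this SE is smaller than counting error alone. A gene was called where the edgeR quasi-likelihood p, adjusted by the Benjamini-Hochberg method over the 16523 genes tested, was under 0.05. Transcripts of the surrounding tissue were abundant in every library. The keratinocyte list summed to 61406 to 72718 CPM in Tac111, 66667 to 90129 CPM in Tac146 and 59972 to 99812 CPM in B6. Ptprc, the gene of the pan-leukocyte protein CD45, stood at 4.69 ± 0.316 CPM in Tac111, 11.5 ± 1.26 CPM in Tac146 and 11.2 ± 0.592 CPM in B6 (SD, n = 3 each). In Tac111, 6 of 15 T cell markers had no read in any library, Cd3d, Cd3e and Cd3g among them. Others stood near their B6 level, such as Trbc2 (6.70 CPM in Tac111, 6.42 CPM in B6) and Cd5 (8.85 CPM in Tac111, 8.35 CPM in B6). Cd3e was also lower in Tac146, labelled T cells (0.175 CPM), than in B6, labelled ILC1 (1.29 CPM), so that it did not follow the labelled cell types.

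Il2rg, Il2rb, Il7r, Il9r and Il21r encode chains of the class I cytokine receptor family, whose members carry a WSXWS box close to the membrane, a short stretch with a tryptophan and a serine on either side of a variable residue. The box was found once in the coding sequence of each of these 5 genes and in neither Il2ra nor Il15ra, which encode the sushi-domain chains of the interleukin 2 and interleukin 15 receptors. The coding strand around it is shown for these 5 chains because they are the relatives that the strain differences set apart or leave together, and the capitals mark the 5 codons of the box. The sequences are from GENCODE transcripts placed on GRCm38, and each lies within 1 coding exon.
Il2rg, exon 5, chrX:101266200-101266244, minus strand: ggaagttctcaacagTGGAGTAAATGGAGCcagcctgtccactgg
Il2rb, exon 7, chr15:78485748-78485792, minus strand: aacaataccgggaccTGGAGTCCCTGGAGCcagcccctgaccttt
Il7r, exon 5, chr15:9511136-9511180, minus strand: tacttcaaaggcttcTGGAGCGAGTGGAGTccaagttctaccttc
Il9r, exon 6, chr11:32193196-32193240, minus strand: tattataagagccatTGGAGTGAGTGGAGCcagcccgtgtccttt
Il21r, exon 6, chr7:125628983-125629027, plus strand: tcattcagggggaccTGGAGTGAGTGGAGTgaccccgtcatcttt
The middle codon differed among the 5 genes, being AAA in Il2rg, CCC in Il2rb and GAG in Il7r, Il9r and Il21r. Reads over these exons were not analysed here, and the values below are whole-gene counts.

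Il2rg (chromosome X, 101264378 to 101268255, minus strand, GRCm38) was close to absent in Tac111 and well detected in the other strains. The Tac111 libraries held 4, 3 and 4 counts, which is 0.128, 0.108 and 0.116 CPM. The Tac146 libraries held 242, 131 and 166 counts, or 5.35, 4.02 and 3.66 CPM. The B6 libraries held 216, 148 and 145 counts, or 5.15, 5.15 and 4.80 CPM. All Tac111 libraries lay below all others, while Tac146 and B6 overlapped. Il2rg fell in Tac111 against B6 (-5.38 ± 0.26 SE on the log2 scale, edgeR adjusted p = 3.59e-06), and the B6 level was 42.8 times the Tac111 level (95% counting interval 23.7 to 86.3). Against Tac146 it fell by a similar amount (-5.16 ± 0.26 SE on the log2 scale, edgeR adjusted p = 2.39e-06). In bulk tissue, fewer cells of a type and less RNA per cell cannot be told apart. The annotated gene Gm20489, which shares exons with Il2rg on the same strand, had 0 counts in all 9 libraries.

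**Figure D1:**
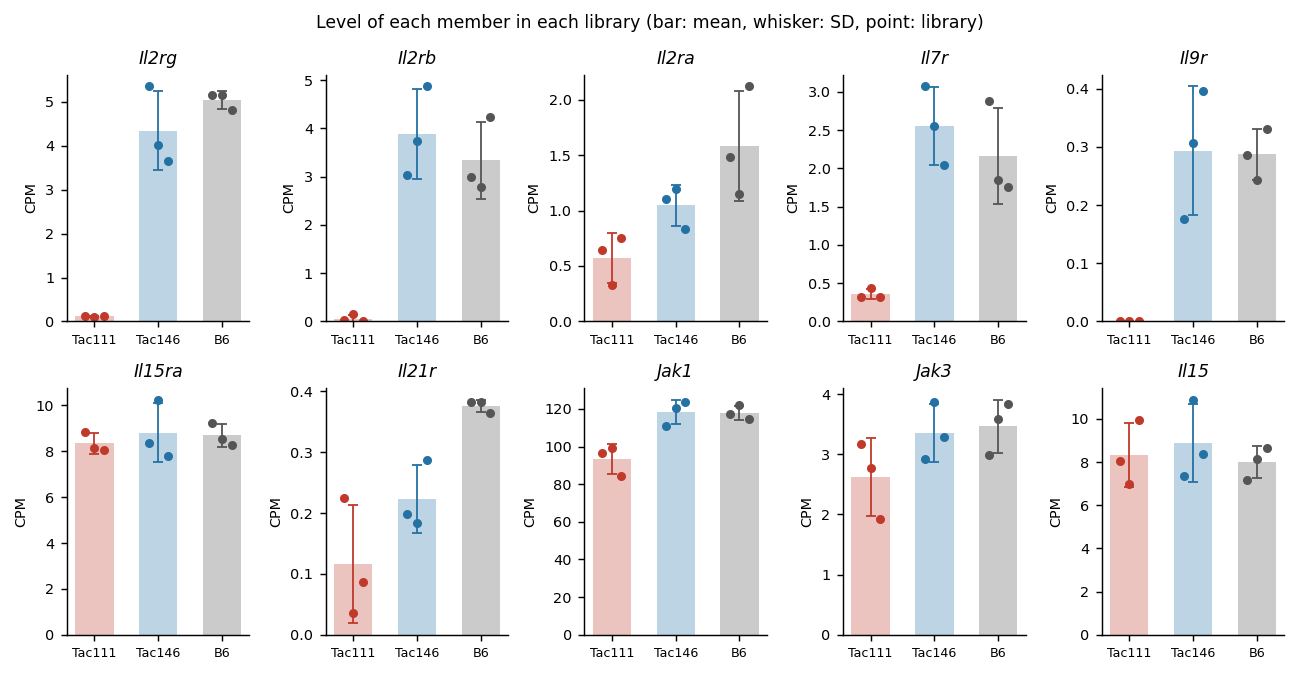
Level of each gene in CPM (vertical axes, from 0) in each library of Tac111, Tac146 and B6 (horizontal axes); bars are means of 3 libraries, whiskers SD and points libraries. Il2rg, Il2rb, Il7r and Il9r are near 0 or low in every Tac111 library, while Il15ra and Il15 overlap across all 3 strains.

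Il2rb (chromosome 15, 78479256 to 78495271, minus strand) encodes the signalling chain shared by the interleukin 2 and interleukin 15 receptors. The Tac111 libraries had 1, 4 and 0 counts, or 0.0320, 0.144 and 0 CPM. Those of Tac146 had 137, 122 and 221 counts (3.03, 3.75 and 4.87 CPM), and those of B6 had 125, 80 and 128 counts (2.98, 2.78 and 4.24 CPM). The strains other than Tac111 overlapped, and no Tac111 library came near them. Il2rb fell in Tac111 against B6 (-5.86 ± 0.52 SE on the log2 scale, edgeR adjusted p = 0.000276), with a B6 level 61.6 times that of Tac111 (95% counting interval 26.1 to 191). It also fell in Tac111 against Tac146 (-6.08 ± 0.51 SE on the log2 scale, edgeR adjusted p = 0.000121).

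Il7r (chromosome 15, 9505788 to 9530176, minus strand) encodes the alpha chain that binds interleukin 7 with the common gamma chain, and thymic stromal lymphopoietin with another partner. It stood at 0.320, 0.433 and 0.320 CPM in the Tac111 libraries (10, 12 and 11 counts). The Tac146 libraries stood at 3.07, 2.55 and 2.05 CPM, and the B6 libraries at 2.89, 1.84 and 1.76 CPM. Tac111 was again lower with no overlap, but unlike Il2rb the transcript remained measurable in each of its libraries. Il7r fell in Tac111 against B6 (-2.61 ± 0.30 SE on the log2 scale, edgeR adjusted p = 0.00112) and against Tac146 (-2.84 ± 0.30 SE on the log2 scale, edgeR adjusted p = 0.000409). The calls for Il2rg, Il2rb and Il7r held in both comparisons under all 16 alternatives.

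Il9r (chromosome 11, 32187541 to 32200279, minus strand), the specific chain of the interleukin 9 receptor, had 0 counts in every Tac111 library. The Tac146 libraries held 8, 10 and 18 counts and the B6 libraries 12, 7 and 10. The gene was thus scarce everywhere and without a read in Tac111 only. With 3 counts over the libraries of a strain taken as the lower limit, it was at least 8.94-fold lower in Tac111 than in B6, with an edgeR adjusted p of 0.0122, and at least 9.09-fold lower than in Tac146, with an edgeR adjusted p of 0.00939. The call against B6 was lost with limma on log2(CPM + 1), at an adjusted p of 0.0580. Without Tac146 replicate 4 Il9r did not pass the filter on low counts.

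Il2ra (chromosome 2, 11642807 to 11693193, plus strand) encodes CD25, the chain that gives the interleukin 2 receptor its high affinity. Its level was 0.641, 0.325 and 0.756 CPM in Tac111, 1.11, 1.20 and 0.837 CPM in Tac146, and 1.48, 1.15 and 2.12 CPM in B6. The Tac111 libraries lay below those of both other strains, and the gap to Tac146 was narrow. Il2ra fell in Tac111 against B6 (-1.44 ± 0.34 SE on the log2 scale, edgeR adjusted p = 0.0432), and the difference from Tac146 did not pass (-0.84 ± 0.34 SE on the log2 scale, edgeR adjusted p = 0.131). The call against B6 was lost in 8 of 16 alternatives, each of which left out 1 library. The edgeR adjusted p was then 0.0844, 0.133 and 0.0703 without Tac111 replicates 1, 2 and 3, 0.0843, 0.0546 and 0.156 without B6 replicates 1, 2 and 3, and 0.0566 and 0.0580 without Tac146 replicates 2 and 3.

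Il15ra (chromosome 2, 11705290 to 11734317, plus strand) encodes the chain that captures interleukin 15 and presents it to neighbouring cells, and it lies 12096 bases from Il2ra. The Tac111 libraries stood at 8.84, 8.12 and 8.05 CPM, those of Tac146 at 8.38, 10.3 and 7.78 CPM, and those of B6 at 9.23, 8.55 and 8.28 CPM. The 3 strains overlapped throughout. The log2 fold change of Tac111 was -0.06 against B6 (SE 0.12, edgeR adjusted p = 0.801) and -0.08 against Tac146 (SE 0.12, edgeR adjusted p = 0.708).

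Il21r (chromosome 7, 125603429 to 125633570, plus strand), the specific chain of the interleukin 21 receptor, was at the edge of detection. Its counts were 7, 1 and 3 in Tac111, 9, 6 and 13 in Tac146, and 16, 11 and 11 in B6. On the CPM scale Tac111 and Tac146 overlapped, and both lay below B6 in every library. Neither difference from B6 passed the test (Tac111 against B6 -1.65 ± 0.50 SE on the log2 scale, edgeR adjusted p = 0.105; Tac146 against B6 -0.73 ± 0.43 SE, edgeR adjusted p = 0.773). Without Tac111 replicate 1 the first of these passed, at an edgeR adjusted p of 0.0483. At 11 counts over the Tac111 libraries and 38 over the B6 libraries, the B6 level was 3.20 times the Tac111 level with a 95% counting interval of 1.60 to 6.93.

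Of the kinases, Jak1 (chromosome 4, 101152367 to 101265282, minus strand), which serves many cytokine receptors outside lymphocytes, was the most abundant transcript of the 10. It stood at 96.8, 99.0 and 84.4 CPM in Tac111, 111.1, 120 and 124 CPM in Tac146, and 117, 122 and 115 CPM in B6. Every Tac111 library was below every other library, by a small margin next to the receptor chains. Jak1 fell in Tac111 against Tac146 (-0.34 ± 0.09 SE on the log2 scale, edgeR adjusted p = 0.0392). A difference of the same size from B6 missed the threshold (-0.34 ± 0.09 SE on the log2 scale, edgeR adjusted p = 0.0604), and it passed with DESeq2 (adjusted p = 0.00640), with limma (adjusted p = 0.0496) and without Tac146 replicate 4 (edgeR adjusted p = 0.0469).

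The call of Jak1 against Tac146 was lost in 10 of 16 alternatives. The edgeR adjusted p was 0.0584, 0.0700 and 0.104 without Tac111 replicates 1, 2 and 3, 0.0550, 0.0636 and 0.0568 without B6 replicates 1, 2 and 3, and 0.102 and 0.0873 without Tac146 replicates 3 and 4. It was 0.0875 when only the 6 libraries compared were fitted. Raver2, an RNA-binding protein gene whose 3′ end overlaps that of Jak1 on the opposite strand, moved the other way. It stood at 5.95 ± 0.720 CPM in Tac111, 1.92 ± 0.721 CPM in Tac146 and 1.66 ± 0.200 CPM in B6 (SD, n = 3 each), and rose in Tac111 against Tac146 (1.62 ± 0.24 SE on the log2 scale, edgeR adjusted p = 0.00398) and against B6 (1.84 ± 0.25 SE on the log2 scale, edgeR adjusted p = 0.00261). The strand setting of the counting is not given, and in the annotation the 2 genes share 4 bases.

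Jak3 (chromosome 8, 71676296 to 71690575, plus strand) is the kinase that binds the common gamma chain itself and is largely confined to blood cells. It stood at 3.17, 2.78 and 1.92 CPM in Tac111, 2.92, 3.87 and 3.28 CPM in Tac146, and 2.98, 3.58 and 3.84 CPM in B6. The strains overlapped, with no gap such as that of Il2rg, its partner in the receptor. The log2 fold change of Tac111 was -0.40 against B6 (SE 0.21, edgeR adjusted p = 0.286) and -0.35 against Tac146 (SE 0.21, edgeR adjusted p = 0.265). Insl3 shares exons with Jak3 on the same strand and had 2.61 to 9 counts per library, so that a few of the Jak3 counts are split estimates.

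Il15 (chromosome 8, 82331632 to 82403222, minus strand) encodes the ligand, which epithelial and myeloid cells make. It stood at 8.07, 7.004 and 9.94 CPM in Tac111, 7.36, 10.9 and 8.37 CPM in Tac146, and 7.18, 8.14 and 8.64 CPM in B6. All 3 strains overlapped. The log2 fold change of Tac111 was 0.07 against B6 (SE 0.17, edgeR adjusted p = 0.845) and -0.08 against Tac146 (SE 0.17, edgeR adjusted p = 0.768). In the Tac111 libraries, the ligand and its presenting chain Il15ra were thus measured at 7.004 to 9.94 CPM, while the signalling chains Il2rb and Il2rg were almost without reads.

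Read together, 5 of the 10 genes fell in Tac111 against B6, namely Il2rg, Il2rb, Il7r, Il9r and Il2ra, and none rose. Of all genes tested, 2.8% were called lower in that comparison. In 7 of the 10, all Tac111 libraries lay below all B6 libraries, which held for 15.8% of all genes tested. The median log2 fold change was -1.54 for the 10 genes and 0.02 for all genes tested. Against Tac146, 5 of the 10 genes fell in Tac111 (Il2rg, Il2rb, Il7r, Il9r and Jak1), where 6.27% of all genes tested were called lower. In 6 of the 10 the libraries did not overlap, against 18.4% of all genes tested, and the median log2 fold change was -0.88 for the 10 genes and 0.02 for all genes tested.

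All 10 genes passed the filter on low counts, which asked for 0.302 CPM in 3 libraries. No Tac111 library reached that level for Il2rg, Il2rb or Il9r, and for Il21r only B6 libraries did, so these 4 genes were tested because of the strains in which they were higher. Among the other 6, Il2ra and Il7r were called lower against B6, and Il7r and Jak1 against Tac146. The count against Tac146 was 3 without Tac146 replicate 4 and 3 when only the 6 libraries compared were fitted. The comparisons with B6 and with Tac146 share the Tac111 libraries.

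**Figure D2:**
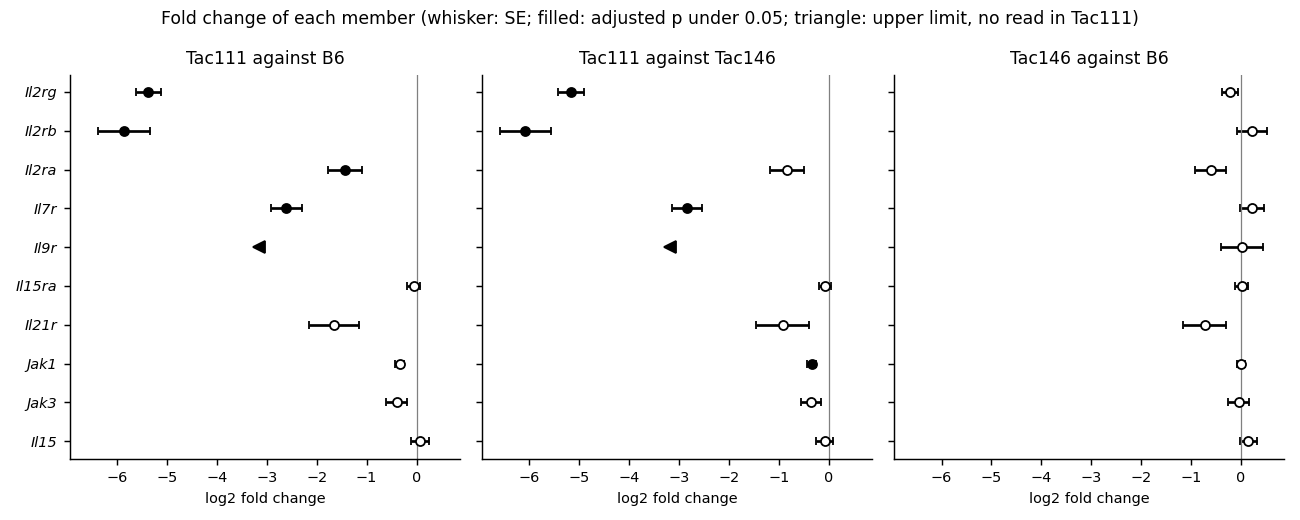
Log2 fold change (horizontal axis) of each gene (rows) in Tac111 against B6, Tac111 against Tac146 and Tac146 against B6; whiskers are SE, filled points have an edgeR adjusted p under 0.05, and triangles mark Il9r at its limit because Tac111 had no read. Il2rg and Il2rb lie beyond -5 in both comparisons of Tac111, while no gene is called in Tac146 against B6.

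None of the 10 genes was called in Tac146 against B6 by edgeR, with adjusted p-values of 0.754 to 0.994, where 0.303% of all genes tested were called. None passed with DESeq2, and none had an unadjusted edgeR p under 0.05. Il2rg had a log2 fold change of -0.21 (SE 0.16), Il2rb of 0.22 (SE 0.29) and Il7r of 0.23 (SE 0.24). The widest gap was that of Il21r, the only gene whose Tac146 and B6 libraries did not overlap, followed by Il2ra (-0.60 ± 0.31 SE on the log2 scale, edgeR adjusted p = 0.754). The SE sets what these libraries could have shown: it was 0.09 for Jak1 and 0.42 for Il9r, so that the scarce chains were resolved less well.

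The order of the 10 genes was compared on CPM per kilobase of annotated exon, which makes levels of genes of different length comparable. In Tac111 the order was Jak1 (12.9), Il15 (3.69), Il15ra (1.88), Jak3 (0.490), Il2ra (0.1005), Il7r (0.0767), Il2rg (0.0493), Il21r (0.0349), Il2rb (0.0137) and Il9r (0). In B6 it was Jak1 (16.3), Il15 (3.53), Il2rg (2.11), Il15ra (1.95), Il2rb (0.778), Jak3 (0.648), Il7r (0.464), Il2ra (0.277), Il21r (0.113) and Il9r (0.0580). Neighbours in these orders whose libraries overlapped were Il2ra with Il7r and the genes from Il2rg to Il9r in Tac111, and Il2rg with Il15ra, Il2rb with Jak3 and Jak3 with Il7r in B6. Il2rg thus had rank 3 in B6 and rank 7 in Tac111. In Tac146 Il2rg stood at 1.82 and overlapped with Il15ra (1.98) just above it, and the order below was Il2rb (0.905), Jak3 (0.627), Il7r (0.548), Il2ra (0.183), Il21r (0.0672) and Il9r (0.0593), with overlap between Il2rb and Jak3, Jak3 and Il7r, and Il21r and Il9r.

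The pan-leukocyte transcript Ptprc was also lower in Tac111. It fell in Tac111 against B6 (-1.26 ± 0.12 SE on the log2 scale, edgeR adjusted p = 0.000389) and against Tac146 (-1.29 ± 0.12 SE on the log2 scale, edgeR adjusted p = 0.000207), with a log2 fold change closer to 0 than those of Il2rg, Il2rb and Il7r. Set against Ptprc in the same library, Il2rg had 2.52 ± 0.359 counts per 100 Ptprc counts in Tac111, 37.7 ± 4.64 in Tac146 and 45.03 ± 4.04 in B6 (SD, n = 3 each). Il2rb had 1.19 ± 1.49, 34.7 ± 12.4 and 29.5 ± 5.34 per 100 in Tac111, Tac146 and B6, and Il7r 7.59 ± 0.852, 22.1 ± 2.21 and 19.4 ± 6.10. On this scale the 3 chains remained lower in every Tac111 library.

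Il2ra and Jak3 read differently on that scale. Il2ra had 12.5 ± 5.36 counts per 100 Ptprc counts in Tac111, 9.08 ± 0.904 in Tac146 and 14.0 ± 3.62 in B6, and the strains overlapped. Jak3 had 55.9 ± 14.1 in Tac111, 29.6 ± 5.31 in Tac146 and 30.9 ± 3.27 in B6, with every Tac111 library above the rest. Il15ra, at 178 ± 18.2 in Tac111, 76.9 ± 9.62 in Tac146 and 77.7 ± 7.39 in B6, and Il15, at 179 ± 40.3, 77.9 ± 17.0 and 71.2 ± 5.19, were likewise higher in all Tac111 libraries when counted against Ptprc. Jak1, called lower in CPM against Tac146, had 1993 ± 152 in Tac111, 1044 ± 172 in Tac146 and 1055 ± 84.1 in B6, with every Tac111 library above the rest. Il21r had 2.55 ± 2.21, 2.00 ± 0.735 and 3.36 ± 0.262 in the same strains, and its Tac111 libraries overlapped with both others. Il9r had 0, 2.65 ± 1.26 and 2.55 ± 0.268. These ratios were chosen after the values were seen and were not tested.

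The cell types that carry these receptors can be followed by their markers. The ILC1 and NK cell list held 9 tested genes, of which 7 fell in Tac111 against B6 and 7 against Tac146. They were Ncr1, Klrb1c, Klrk1, Nkg7, Gzmc, Itga1 and Itgae in both, and no gene of the list was called in Tac146 against B6. Among all genes tested, 2.8% were called lower in Tac111 against B6 and 6.27% against Tac146. Ncr1, Nkg7 and Gzmc had no read in Tac111, and Klrb1c reached at most 0.0581 CPM there. The Tac111 medians of Klrk1 and Itgae, 0.262 and 0.217 CPM, were also under the filter level of 0.302 CPM. All of these genes were thus tested because of the strains in which they were higher. The 13 listed genes summed to 7.21 to 9.26 CPM in Tac111, 26.2 to 32.6 CPM in Tac146 and 24.6 to 29.8 CPM in B6, and Ncr1, Eomes, Nkg7, Gzma, Gzmc and Klra1 had no read in Tac111. Klra1 had no read in Tac146 either. Itga1, an integrin chain also made outside lymphocytes, was among the markers with reads in Tac111. Tbx21, a transcription factor of ILC1, NK and T cells, stood at 0.648 CPM in Tac111, 0.770 CPM in Tac146 and 1.06 CPM in B6, and Klrd1, which encodes the NK receptor chain CD94, at 0.297 CPM in Tac111, 0.693 CPM in Tac146 and 0.559 CPM in B6, and neither was called. Some defining genes of NK cells and ILC1 were thus at 0 in the libraries in which Il2rb and Il2rg were low, while others kept reads, and the part of cell content in these levels was not tested.

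Of 13 tested T cell markers, 5 fell in Tac111 against B6 (Cd3d, Cd3e, Cd3g, Trac and Cd6). In Tac111 against Tac146, 3 fell (Cd3e, Cd3g and Trbc1), and in Tac146 against B6, 4 fell (Cd3d, Cd3e, Cd3g and Trac). Among all genes tested, 2.8% and 6.27% were called lower in the first 2 comparisons, and 0.303% were called in either direction in the last. Cd3d, Cd3e, Cd3g and Cd6 had no read in Tac111, and Trac reached at most 0.128 CPM there. These genes were tested because of the strains in which they were higher. In Tac146, Cd3d, Cd3e and Trac reached at most 0.0442, 0.215 and 0.0881 CPM, under the filter level of 0.302 CPM. Cd3d, Cd3e and Trac were thus tested because of their B6 levels, also in Tac146 against B6. The median log2 fold changes of the list were -1.41, -0.03 and -1.50 in these comparisons. Cd5, a surface receptor of T cells, was not called and stood at 8.85 CPM in Tac111, 8.22 CPM in Tac146 and 8.35 CPM in B6. The 4 gamma delta T cell markers summed to 0.0291 to 0.108 CPM in Tac111, 0.398 to 0.573 CPM in Tac146 and 2.22 to 3.44 CPM in B6, in 3 ranges that did not overlap. Cd3e, a chain of the T cell receptor complex, stood at 0 CPM in Tac111, 0.175 CPM in Tac146 and 1.29 CPM in B6. In Tac146, low Cd3d, Cd3e, Cd3g and Trac levels thus stood beside Il2rg, Il2rb and Il7r levels that overlapped with those of B6.

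The further lists are read beside the 2.8% of all genes tested that were called lower in Tac111 against B6, and the 6.27% against Tac146. Of 8 tested ILC2 and ILC3 markers, Rora and Ltb fell in Tac111 in both comparisons. Ltb reached at most 0.181 CPM in Tac111 and was tested because of the strains in which it was higher. Of 11 markers of macrophages and dendritic cells, those that fell in Tac111 were Itgax and Cd207 against B6, and Csf1r, Adgre1, Itgax and Cd207 against Tac146. Of 6 endothelial markers, Pecam1, Cdh5, Kdr and Tie1 fell in Tac111 in both comparisons. Of 4 tested neutrophil markers, S100a8, S100a9 and Cxcr2 fell in Tac111 against Tac146, where the list summed to 6.57 to 7.98 CPM in Tac111 and 34.4 to 160 CPM in Tac146. The Tac146 sum was mostly S100a8 and S100a9, at means of 30.2 and 49.7 CPM. Csf3r was not called, and Ly6g had no read in any library. Retnlg, not tested, had 9 counts over the Tac111 libraries and 8 over those of Tac146. None of 6 mast cell, 6 fibroblast and 6 skeletal muscle markers was called in any comparison, and no B cell marker passed the filter. Of 8 keratinocyte markers, Dsg3 was called lower in Tac111 against Tac146. The part of these differences in cell content in the levels of the 10 genes was not tested.

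**Figure D3:**
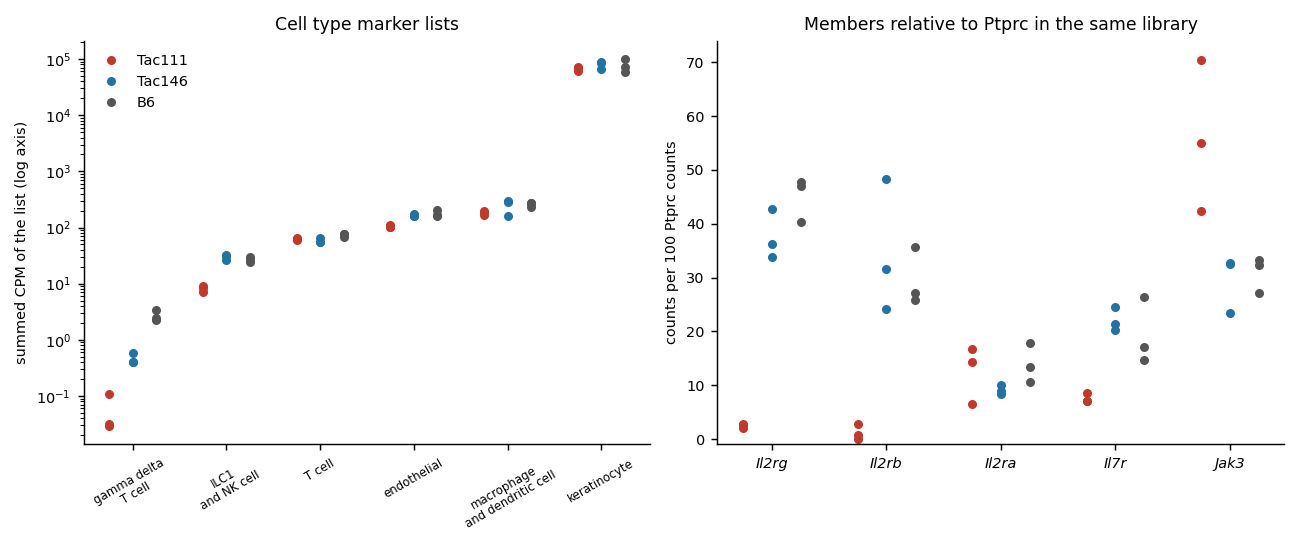
Left, summed CPM of cell type marker lists in each library (points, log axis) of Tac111, Tac146 and B6; right, counts of Il2rg, Il2rb, Il2ra, Il7r and Jak3 per 100 Ptprc counts of the same library. ILC1 and NK cell markers separate Tac111 (7.21 to 9.26 CPM) from the other strains, and Il2rg and Il2rb stay near 0 in Tac111 also when set against Ptprc.

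The genes around Il2rg were read to see whether its neighbours on the chromosome moved with it. Within 100 kb of Il2rg the annotation lists 9 other genes that are also in the files. Of these, 5 were tested (Nlgn3, Gm21986, Med12, Foxo4 and Snx12), and none was called in any of the 3 comparisons. Among all genes tested, 2.8% were called lower in Tac111 against B6 and 6.27% against Tac146. In Tac146 against B6, 0.303% were called in either direction. With shares this small, no call among 5 genes does not set the neighbours apart from other genes. Foxo4, a forkhead factor gene whose start lies 13.7 kb past that of Il2rg along its direction of transcription, stood at 63.5 CPM in Tac111, 64.8 CPM in Tac146 and 72.6 CPM in B6. Its log2 fold change in Tac111 against B6 was -0.19 (SE 0.08, edgeR adjusted p = 0.205). Every Tac111 library lay below every B6 library for Foxo4, which held for 15.8% of all genes tested. Med12, a Mediator subunit gene on the other side, had a log2 fold change of -0.38 in Tac111 against B6 (SE 0.23, edgeR adjusted p = 0.350). Against Tac146 its log2 fold change was -0.53 (SE 0.23, edgeR adjusted p = 0.155), and the libraries overlapped.

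Gm614, which follows Il2rg on the same strand and was too scarce to be tested, had 3, 2 and 6 counts in Tac111, 1, 0 and 1 in Tac146, and 0 in every library of B6. It was singled out after its values were seen. Its few reads lay in the strain in which Il2rg was lowest. With Gm614 at 11 counts over the Tac111 libraries, no fold is given against the 0 of B6, and its difference was not tested.

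**Figure D4:**
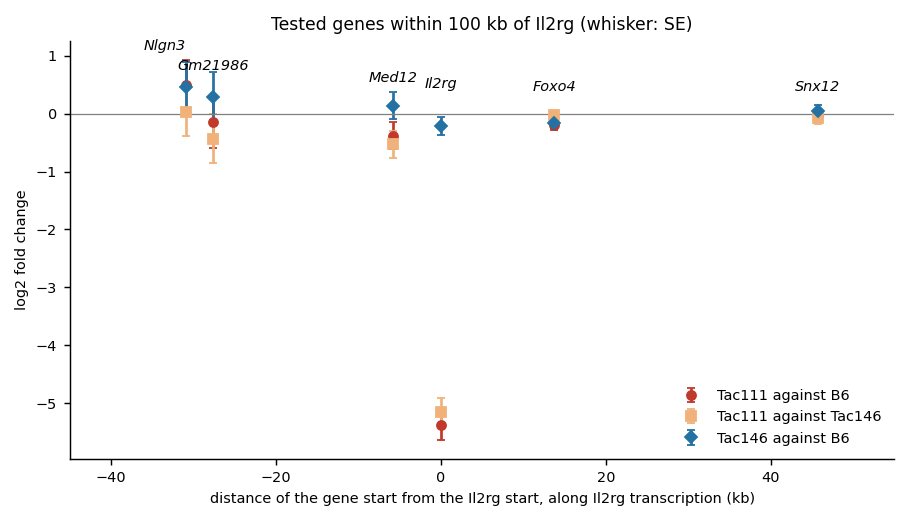
Log2 fold change (vertical axis, whiskers SE) of Il2rg and of the 5 tested genes within 100 kb of it, against the distance in kb of their starts from that of Il2rg along its transcription, for Tac111 against B6, Tac111 against Tac146 and Tac146 against B6. Il2rg lies at -5.38 and -5.16 in the comparisons of Tac111, and no neighbour is called.

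Promoter windows, from 250 bases before to 50 after the start, were matched in RefSeq's table (GRCm38.p6) for 8 of the 10 genes. Those of Il2rg and Il7r are shown because both genes fell in Tac111 and both windows hold the core letters of the RUNX and ETS factor families, which act in lymphocytes. Each run is the first 275 bases of the window, and the capitals mark TGTGGT (RUNX), AGGAAG (ETS) and TTCNNNGAA (the GAS element that STAT factors bind), each searched on both strands.
Il2rg, chrX:101268231-101268505, minus strand: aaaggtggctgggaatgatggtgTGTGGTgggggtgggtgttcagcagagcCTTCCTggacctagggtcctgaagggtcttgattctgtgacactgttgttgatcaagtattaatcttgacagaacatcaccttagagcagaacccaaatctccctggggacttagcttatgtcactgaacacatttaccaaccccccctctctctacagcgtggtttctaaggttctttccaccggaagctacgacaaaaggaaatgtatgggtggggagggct
Il7r, chr15:9529852-9530126, minus strand: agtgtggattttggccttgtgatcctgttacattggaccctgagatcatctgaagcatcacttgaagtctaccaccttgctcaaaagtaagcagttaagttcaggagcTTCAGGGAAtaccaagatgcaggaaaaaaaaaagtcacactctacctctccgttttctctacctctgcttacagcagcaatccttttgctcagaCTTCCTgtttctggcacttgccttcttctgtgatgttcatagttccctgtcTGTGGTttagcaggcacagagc
The RUNX letters were found in 4 of the 8 genes (Il2rg, Il7r, Il9r and Il21r) and in 16.8% of all 32851 windows of the table. The ETS letters were found in 4 of the 8 genes (Il2rg, Il7r, Il2ra and Il15ra) and in 35.4% of all windows, and both together in Il2rg and Il7r and in 6.26% of all windows. The GAS letters were found in Il7r alone of the 8 genes and in 8.3% of all windows. None of these matches overlapped another. Il15ra, with the ETS letters, did not differ between strains in these data, and a match describes the letters only.

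The genes whose levels followed Il2rg and Il2rb most closely over the 9 libraries were ranked by Pearson's r of log2(CPM + 1) among 14637 genes. For Il2rg they were H2-Q6 (0.994), Pttg1 (0.992), H2-Q4 (0.991), Csf2rb2 (0.988) and H2-Q7 (0.987). The H2-Q genes encode class Ib major histocompatibility proteins and are close copies of each other, so that the counting may split their reads, and Csf2rb2 encodes the chain of the mouse interleukin 3 receptor. H2-Q4 stood at 11.3 CPM in Tac111, 26.8 CPM in Tac146 and 29.9 CPM in B6. The 3 Tac111 libraries stand apart from the other 6 in Il2rg, so that these r describe mostly that gap.

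For Il2rb the closest were Xcl1 (0.995), Limd1 (0.994), Klrk1 (0.991), Gzmc (0.990) and Alox15 (0.990). Xcl1 encodes a chemokine of NK and CD8+ T cells, Klrk1 the activating NK receptor NKG2D and Gzmc a granzyme. Xcl1 had 0 CPM in Tac111, 1.31 CPM in Tac146 and 1.16 CPM in B6, the same shape as Il2rb. Alox15, a lipoxygenase gene, stood at 4.02 CPM in Tac111, 409 CPM in Tac146 and 208 CPM in B6. For Il15, which did not separate the strains, the highest were Utp11 (0.906), Mroh4 (0.901), Fhad1 (0.896), Arc (0.887) and Ces2c (0.885), and these r rest on differences within strains of the size of the replicate spread.

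The rest of the pathway was followed in 41 further genes, of which 34 were tested. In Tac111 against B6, 2 of the 34 fell (Stat4 and Pik3cd) and none rose, where 2.8% of all genes tested were called lower, and the median log2 fold change was -0.18. In Tac111 against Tac146, 6 of the 34 fell (Il13ra1, Stat3, Stat4, Socs3, Ptpn6 and Cbl) and none rose, where 6.27% of all genes tested were called lower, and the median was -0.23. None of the 34 was called in Tac146 against B6, by edgeR or in any of the 16 alternatives, and the median was 0.01. Stat4, under the filter level in every Tac111 library, was tested because of the strains in which it was higher. The counts of called genes turn on single libraries. Against B6 the count was 1, 0 and 1 without Tac111 replicates 1, 2 and 3, 1 without B6 replicate 2, and 4 without Tac146 replicate 4. Against Tac146 it was 2, 0 and 1 without Tac111 replicates 1, 2 and 3, 3 without B6 replicate 2, and 2 and 3 without Tac146 replicates 3 and 4.

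Of the other ligands, Il9 and Il21 had 0 counts in all 9 libraries, and Il2 and Il4 had at most 9 counts over the libraries of a strain and were not tested. Il7, the lymphocyte survival factor made by stroma and epithelium, stood at 1.11 ± 0.237 CPM in Tac111, 1.32 ± 0.279 CPM in Tac146 and 1.41 ± 0.419 CPM in B6 (SD, n = 3 each). Tslp, the other ligand that uses Il7r, stood at 1.22 ± 0.525 CPM in Tac111, 1.05 ± 0.516 CPM in Tac146 and 1.07 ± 0.131 CPM in B6. Neither was called in a comparison. Among the other receptor chains, Il13ra1, a partner of the interleukin 4 receptor, stood at 72.3 ± 5.73 CPM in Tac111 and 98.2 ± 9.16 CPM in Tac146 (-0.44 ± 0.10 SE on the log2 scale, edgeR adjusted p = 0.0282). Il4ra, the chain that binds interleukin 4 with the common gamma chain, stood at 23.4 ± 2.55 CPM in Tac111, 33.0 ± 8.00 CPM in Tac146 and 24.1 ± 2.04 CPM in B6 and was not called.

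Of the 6 STAT factors followed here, Stat4, which relays interleukin 12 in NK and T cells, changed most. Stat4 reached at most 0.262 CPM in Tac111, under the filter level of 0.302 CPM. It was thus tested because of the strains in which it was higher. It stood at 0.213 ± 0.0508 CPM in Tac111, 0.649 ± 0.139 CPM in Tac146 and 0.713 ± 0.157 CPM in B6, and fell in Tac111 against B6 (-1.71 ± 0.35 SE on the log2 scale, edgeR adjusted p = 0.0231) and against Tac146 (-1.60 ± 0.35 SE on the log2 scale, edgeR adjusted p = 0.0237). Stat5a and Stat5b, the factors that the common gamma chain receptors mainly use, were not called. Stat5a stood at 15.1 ± 0.603 CPM in Tac111, 17.7 ± 2.48 CPM in Tac146 and 16.9 ± 1.69 CPM in B6, and Stat5b at 39.2 ± 1.18 CPM, 43.2 ± 1.45 CPM and 44.2 ± 1.59 CPM in the same strains. Jak2 and Tyk2, the kinases of other cytokine receptors, were not called either, with log2 fold changes in Tac111 against B6 of -0.12 (SE 0.08) and -0.10 (SE 0.12).

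Among adapters and lipid kinase subunits, Pik3cd, the leukocyte-enriched catalytic subunit of phosphoinositide 3-kinase, stood at 3.73 ± 0.265 CPM in Tac111, 5.34 ± 0.765 CPM in Tac146 and 6.59 ± 0.410 CPM in B6, and fell against B6 (-0.82 ± 0.14 SE on the log2 scale, edgeR adjusted p = 0.0111). The other 6 of that list, such as Grb2 and Akt1, were not called. Of 8 negative regulators, Socs3, Ptpn6 and Cbl fell in Tac111 against Tac146. Socs3, an inhibitor induced by STAT3, stood at 14.9 ± 2.08 CPM in Tac111 and 22.4 ± 1.49 CPM in Tac146 (-0.59 ± 0.11 SE on the log2 scale, edgeR adjusted p = 0.0156). Cish, a direct STAT5 target and feedback inhibitor, stood at 22.4 ± 6.51 CPM in Tac111, 29.2 ± 2.19 CPM in Tac146 and 27.8 ± 6.76 CPM in B6, with overlap and no call.

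None of the 6 tested target genes of the receptors (Bcl2, Mcl1, Pim1, Pim2, Myc and Ccnd2) was called in a comparison by edgeR. For Myc and Ccnd2 every Tac111 library lay below every B6 library, which held for 15.8% of all genes tested, and the others overlapped. Levels in bulk tissue do not tell which cells made these transcripts, so the output of the receptors was not measured. Bcl2, which keeps lymphocytes alive, stood at 5.08 ± 1.55 CPM in Tac111, 6.96 ± 0.342 CPM in Tac146 and 6.36 ± 0.719 CPM in B6. The remaining 3 listed targets were too scarce to be tested. Of these, Gzmb and Prf1, which encode cytotoxic granule proteins, had 0 counts over the Tac111 libraries, 12 and 33 over the Tac146 libraries, and 34 and 40 over the B6 libraries. Gzmb and Prf1 were thus without a read in Tac111. Osm, the other scarce target, had 4 counts over the Tac111 libraries, 21 over those of Tac146 and 8 over those of B6.

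**Figure D5:**
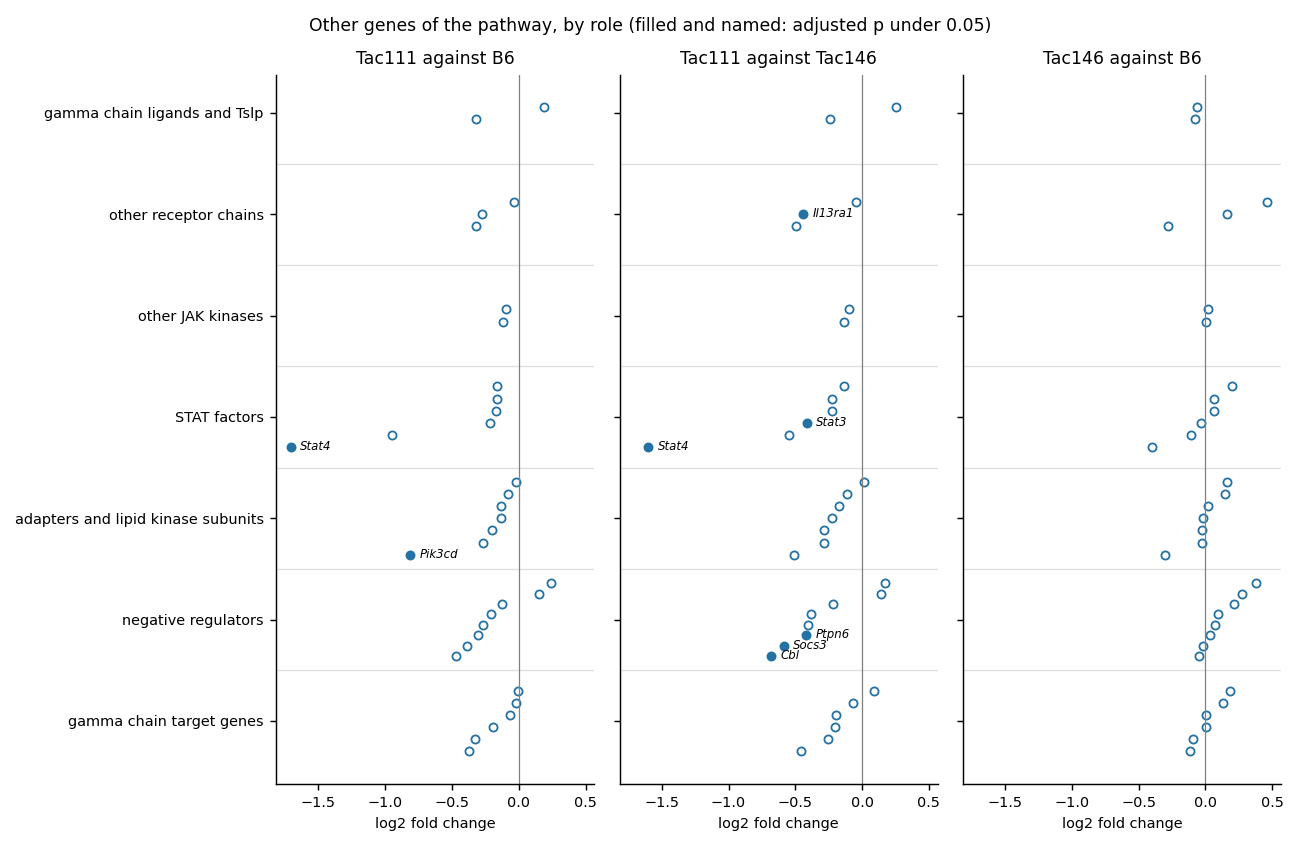
Log2 fold change (horizontal axis) of the 34 tested genes of the pathway, grouped by role (rows), in Tac111 against B6, Tac111 against Tac146 and Tac146 against B6; filled and named points have an edgeR adjusted p under 0.05. Called genes lie at or below -0.42 in the comparisons of Tac111, and none is called in Tac146 against B6.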

How the data were processed

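RNA of 9 labial mucosa libraries was prepared with a stranded kit, per the labels' protocols. The authors deposited expected counts per gene symbol (estimated counts that need not be whole), and STAR, RSEM and GRCm38 are named in the submitters' processing notes; the sources used here give neither versions nor the annotation, nor how strand was handled. Each file held 55450 lines; 107 symbols on several lines were summed, and 27 date-like names were kept apart. Strains and replicate numbers came from the labels. Replicates of a strain differed by 15.7 to 93.7 chi-square per degree of freedom, so each library was treated as its own replicate. That spread does not show whether the libraries came from different animals.

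Expected counts were rounded to whole numbers. EdgeR 4.0.16 in R 4.3.3 (quasi-likelihood test, TMM factors, filterByExpr with a minimum count of 10) took all 9 libraries into 1 model of strain means, which leaves 6 residual degrees of freedom, and was checked on simulated data with 200 changed genes. Alternatives were median-ratio factors, no filter, 1 CPM in 3 libraries, DESeq2 1.42.0, limma 3.58.1 on log2(CPM + 1), a replicate block, the 6 libraries of a comparison, and each library left out, with levels also on total counts. Counting intervals and floors cover counting error only. Coordinates and exon lengths came from a GENCODE annotation of GRCm38 by symbol. Named genes were all members, the called genes of each pathway list with up to 4 of the smallest adjusted p, tested neighbours of Il2rg, the 5 closest genes by Pearson's r without predicted genes and pseudogenes, and up to 2 markers per list beside those called. One gene of the pathway lists is not reported here. The members and lists were chosen with earlier results of these data known. Tables came from Python 3.11.15 with pandas 2.3.3 and scipy 1.17.1, and figures from matplotlib 3.10.9.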

Additional observations from a re-analysis of the deposited data

How the results depend on the processing

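The calls of Il2rg, Il2rb and Il7r in Tac111 against B6 and against Tac146 held under all 16 alternatives, and no alternative called any of the 10 genes in Tac146 against B6. Levels on total counts kept within 1 SD. Counts of called genes moved more. In Tac111 against B6, 630 genes were called in all, 1020 without the filter, 1213 with DESeq2 and 295 to 958 with 1 library left out; of the pathway 2 were called, 5 without the filter, 1 at 1 CPM in 3 libraries, 4 with DESeq2 and 0 to 4 with 1 library left out. In Tac146 against B6, 50 genes were called, 129 without the filter, 136 with DESeq2, 26 with only the 6 libraries and 33 to 64 with 1 left out. In Tac111 against Tac146, 1469 genes were called, 2677 with DESeq2, 641 with only the 6 libraries and 470 to 1829 with 1 left out; of the 10 genes 5 were called, 3 with only the 6 libraries and 3 to 5 with 1 left out; of the pathway 6, 2 with only the 6 libraries and 0 to 6 with 1 left out. The cause of these shifts was not tested.

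In deviations from the strain means, same-numbered replicates had a correlation of -0.18 to 0.31, and differently numbered ones of -0.44 to 0.38. With 3 libraries per strain, these values do not show whether the numbers pair the samples. With a replicate block, 632 genes and 0 of the pathway were called in Tac111 against Tac146, Jak1 had an adjusted p of 0.152 there, and the log2 fold changes in Tac146 against B6 were -0.051 for Il2rb, -0.26 for Il9r and -0.015 for Jak1.

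Other signs turned only for log2 fold changes near 0 that were never called. With 1 library left out, Il15 ran from -0.084 to 0.18 in Tac111 against B6. In Tac146 against B6, Il15 ran from -0.019 to 0.26, Il15ra from -0.11 to 0.096, Il9r from -0.066 to 0.29, Jak1 from -0.028 to 0.040 and Jak3 from -0.16 to 0.037. In Tac111 against Tac146, Il15 ran from -0.23 to 0.086 and Il15ra from -0.16 to 0.045. With only the 6 libraries, Jak1 stood at -0.0054 in Tac146 against B6. The scarce Il9r and Il21r were not tested at 1 CPM in 3 libraries, nor was Il9r with only the 6 libraries of a Tac111 comparison, nor Il21r with those of Tac111 and Tac146. Depth limits these genes: 3 counts over the Tac111 libraries are 0.0321 CPM.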
